A study of Homo sapiens with 6 samples.

Results

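The BCL2 family genes described here were 10 genes that decide whether the mitochondrial route of apoptosis is opened: the survival genes BCL2, BCL2L1, MCL1 and BCL2A1, the pore-forming effector genes BAX and BAK1, and the BH3-only genes BID, BCL2L11, BMF and PMAIP1. They were chosen by name, with earlier results of these data known. Each was taken from probesets that the platform's annotation assigns to a single gene symbol. All 10 were found, each with 1 such probeset, among 18404 genes tested. The samples were PC-3 cells, an androgen-independent line from a human prostate carcinoma, kept in DMEM with 10% fetal bovine serum. One group received menthol, the cooling compound of mint, in ethanol (3 arrays), and the other received ethanol alone as vehicle (3 arrays), with ethanol at 0.1% in both. How much menthol was given, and for how long, is not stated in the labels. The samples come from a single cell line, and nothing in the labels tells whether the replicates of a group were grown as separate cultures, so the p-values measure the spread between these arrays, which may be technical.

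Proteins of this family share short BCL2 homology regions and meet at the outer mitochondrial membrane. The survival proteins hold BAX and BAK1 in check. BH3-only proteins carry only the region called BH3, with which they occupy the groove of the survival proteins or engage the effectors directly. Once active, BAX and BAK1 permeabilise the membrane and release cytochrome c, which starts the caspase cascade. The survival proteins differ in which BH3-only proteins they bind: NOXA, the product of PMAIP1, binds MCL1 and the BCL2A1 protein, whereas BIM, the product of BCL2L11, binds all of them.

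With menthol BCL2A1 rose 1.73-fold, PMAIP1 was 1.29-fold lower and BCL2L11 rose 1.17-fold, while the other 7 members did not pass the threshold. The survival gene BCL2A1 rose and the BH3-only gene PMAIP1, whose product binds the BCL2A1 protein, fell on the same arrays. BCL2L11, a BH3-only gene whose product binds all of the survival proteins, rose on them. In all, 2 of 10 members were called higher and 1 lower in limma at an adjusted p under 0.05. Of all genes tested, 29.1% were called, 14.6% higher and 14.5% lower, so the share of members called was near that of the genes at large. With 1 array left out, 1 member was higher without menthol replicate 1 or 2 or any vehicle array (BCL2A1), 3 were higher without menthol replicate 3 (BCL2A1, BAK1 and BCL2L11), and 2 were lower without menthol replicate 2 (BCL2 and PMAIP1). The values of the groups did not overlap in 6 of the 10 members, 5 of them higher with menthol, against 45.3% of all genes in either direction. The median change of the members was 0.10 on the log2 scale, against 0.03 for all genes. The median size of the change, whatever its sign, was 0.19 in the members and 0.16 in all genes. In bulk RNA, fewer cells of a kind and less RNA per cell cannot be told apart.

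**Figure D1:**
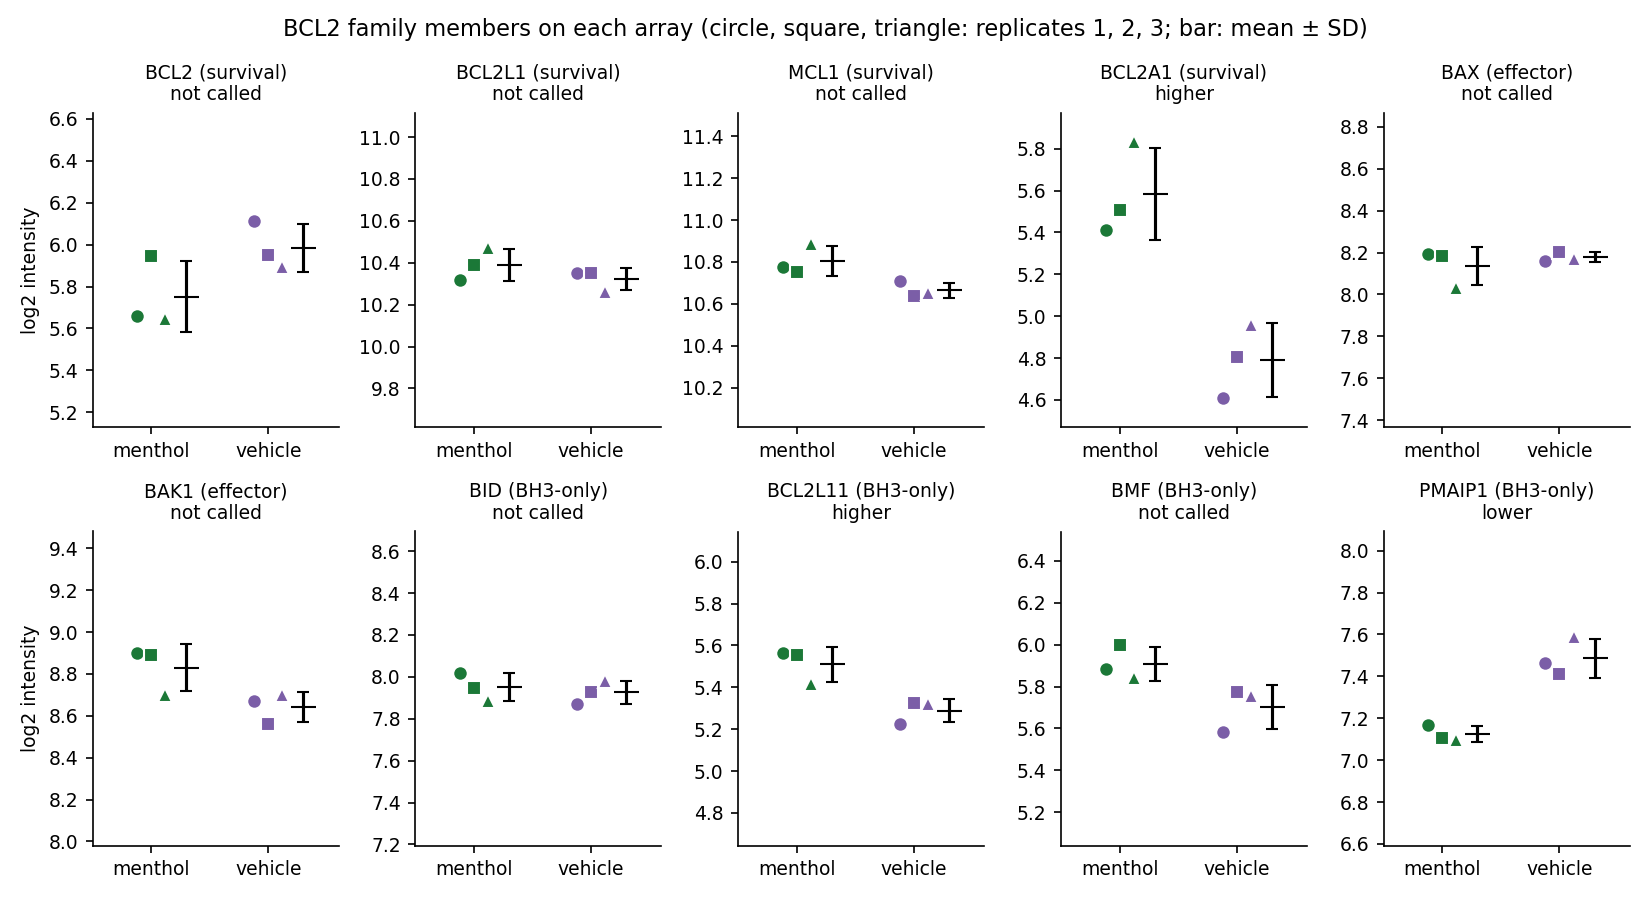
Log2 intensity (y axis) of each of the 10 members on each array, with menthol left of vehicle; circles, squares and triangles are replicates 1, 2 and 3, the black bars are the mean ± SD of 3 arrays, and every panel spans the same height. BCL2A1 and PMAIP1 show the widest gaps between the groups, and BAX and BID show groups that lie over each other.

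Among the survival genes BCL2A1, which encodes the small survival protein A1 or BFL-1 and is best known from blood cells and melanocytes, had log2 intensities of 5.41, 5.51 and 5.83 with menthol, against 4.61, 4.81 and 4.96 with vehicle. The lowest menthol array lay above the highest vehicle array. The group means were 5.58 ± 0.22 with menthol and 4.79 ± 0.17 with vehicle (SD, n = 3 each), and the difference was 0.79 ± 0.13 on the log2 scale (SE; 95% interval 0.49 to 1.09; limma adjusted p = 0.00346). By size of change BCL2A1 ranked 453rd of the 18404 genes. The change in BCL2A1 passed the threshold under each of the 17 alternatives that could be computed for it, with values from 0.55 to 0.88. The lowest, 0.55, was the value with 16 added before log2, which weighs on dim probesets. Not all of these alternatives were separate checks: BCL2A1 has 1 probeset, so those with other probesets could not move its value. The filter on dim genes, the trended prior, the replicate block and the threshold of 0.01 also kept the value of 0.79. On the linear scale its intensity was 42.5 to 57.0 units with menthol and 24.4 to 31.1 units with vehicle, a dim probeset at the 31.2th percentile of mean level.

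MCL1, a short-lived survival protein on which many carcinoma lines depend, had log2 intensities of 10.78, 10.75 and 10.89 with menthol, against 10.71, 10.64 and 10.65 with vehicle. The groups did not overlap, yet the difference of 0.14 ± 0.06 (SE) did not pass (adjusted p = 0.144, 95% interval -0.01 to 0.29). It passed under quantile normalization (0.23, adjusted p = 0.0273), under cyclic loess normalization (0.23, adjusted p = 0.0277) and with an intensity-trended prior (adjusted p = 0.0282), within a range of adjusted p up to 0.304 over its alternatives. BCL2L1 encodes the survival protein BCL-xL and, by alternative splicing, the opposing short form BCL-xS, and the platform annotation lists 2 RefSeq transcripts for its probeset. It ranged from 10.32 to 10.47 with menthol and from 10.26 to 10.35 with vehicle, overlapping groups with a difference of 0.07 (95% interval -0.09 to 0.22, adjusted p = 0.488). The value for BCL2L1 does not separate the spliced forms. BCL2, the founder of the family, had 5.66, 5.95 and 5.64 with menthol, against 6.11, 5.95 and 5.89 with vehicle. Menthol replicate 2 lay within the vehicle range and the other menthol arrays below it. The difference for BCL2, -0.23 ± 0.10 (SE; 95% interval -0.47 to 0.00), did not pass with all arrays (adjusted p = 0.122) and passed without menthol replicate 2 (-0.33, adjusted p = 0.0377).

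Of the effector genes neither was called. BAK1, whose product sits in the mitochondrial membrane, had 8.90, 8.89 and 8.70 with menthol, against 8.67, 8.56 and 8.70 with vehicle. Its groups touched without overlapping, since menthol replicate 3 and vehicle replicate 3 were nearly equal. The BAK1 difference was 0.19 ± 0.08 (SE; adjusted p = 0.113), and it passed without menthol replicate 3 (0.25, adjusted p = 0.0439), when genes below the median level were left out (adjusted p = 0.038) and with the trended prior (adjusted p = 0.0338). BAX, which moves from the cytosol to the mitochondria when activated, ranged from 8.03 to 8.19 with menthol and from 8.16 to 8.20 with vehicle. The BAX groups overlapped, with a difference of -0.04 (95% interval -0.20 to 0.11, adjusted p = 0.678) whose sign turned under cyclic loess normalization and without menthol replicate 3.

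Of the 4 BH3-only genes 1 was called lower, 1 was called higher at an adjusted p close to the threshold, and 2 were not called. PMAIP1 had log2 intensities of 7.17, 7.11 and 7.10 with menthol, against 7.46, 7.41 and 7.59 with vehicle. All menthol arrays lay below all vehicle arrays. The means were 7.12 ± 0.04 with menthol and 7.49 ± 0.09 with vehicle (SD, n = 3 each), and PMAIP1 fell by 0.36 ± 0.07 on the log2 scale (SE; 95% interval -0.52 to -0.20; limma adjusted p = 0.00657). The decrease of PMAIP1 passed under all 18 alternatives, with values from -0.40 to -0.31. Like BCL2A1 it has 1 probeset, so the alternatives with other probesets could not move its value.

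BCL2L11 encodes BIM in several spliced forms, and 17 RefSeq transcripts are listed for its probeset. It had 5.56, 5.55 and 5.41 with menthol, against 5.22, 5.32 and 5.32 with vehicle. The groups did not overlap, and BCL2L11 rose by 0.22 ± 0.07 (SE; 95% interval 0.06 to 0.38), with an adjusted p of 0.0463 close to the threshold. The call on BCL2L11 ended without menthol replicate 1 or 2 and without vehicle replicate 1, 2 or 3, with adjusted p between 0.0874 and 0.146 and changes between 0.19 and 0.24. It also ended under quantile normalization (adjusted p = 0.0656), equal array medians (0.0780), cyclic loess normalization (0.0967), the trended prior (0.105) and the replicate block (0.0812). BMF, a BH3-only protein bound to the cytoskeleton in resting cells, had 5.88, 6.0 and 5.84 with menthol, against 5.58, 5.77 and 5.75 with vehicle. The BMF groups did not overlap, but the difference of 0.20 ± 0.08 (SE) did not pass (adjusted p = 0.0897) and under no alternative went below an adjusted p of 0.0516. BID, which links the death receptors to the mitochondria after cleavage by caspase-8, ranged from 7.88 to 8.02 with menthol and from 7.87 to 7.98 with vehicle. Its groups overlapped almost completely, with a difference of 0.02 (95% interval -0.13 to 0.18, adjusted p = 0.826), and the sign turned without menthol replicate 1 or vehicle replicate 1.

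**Figure D2:**
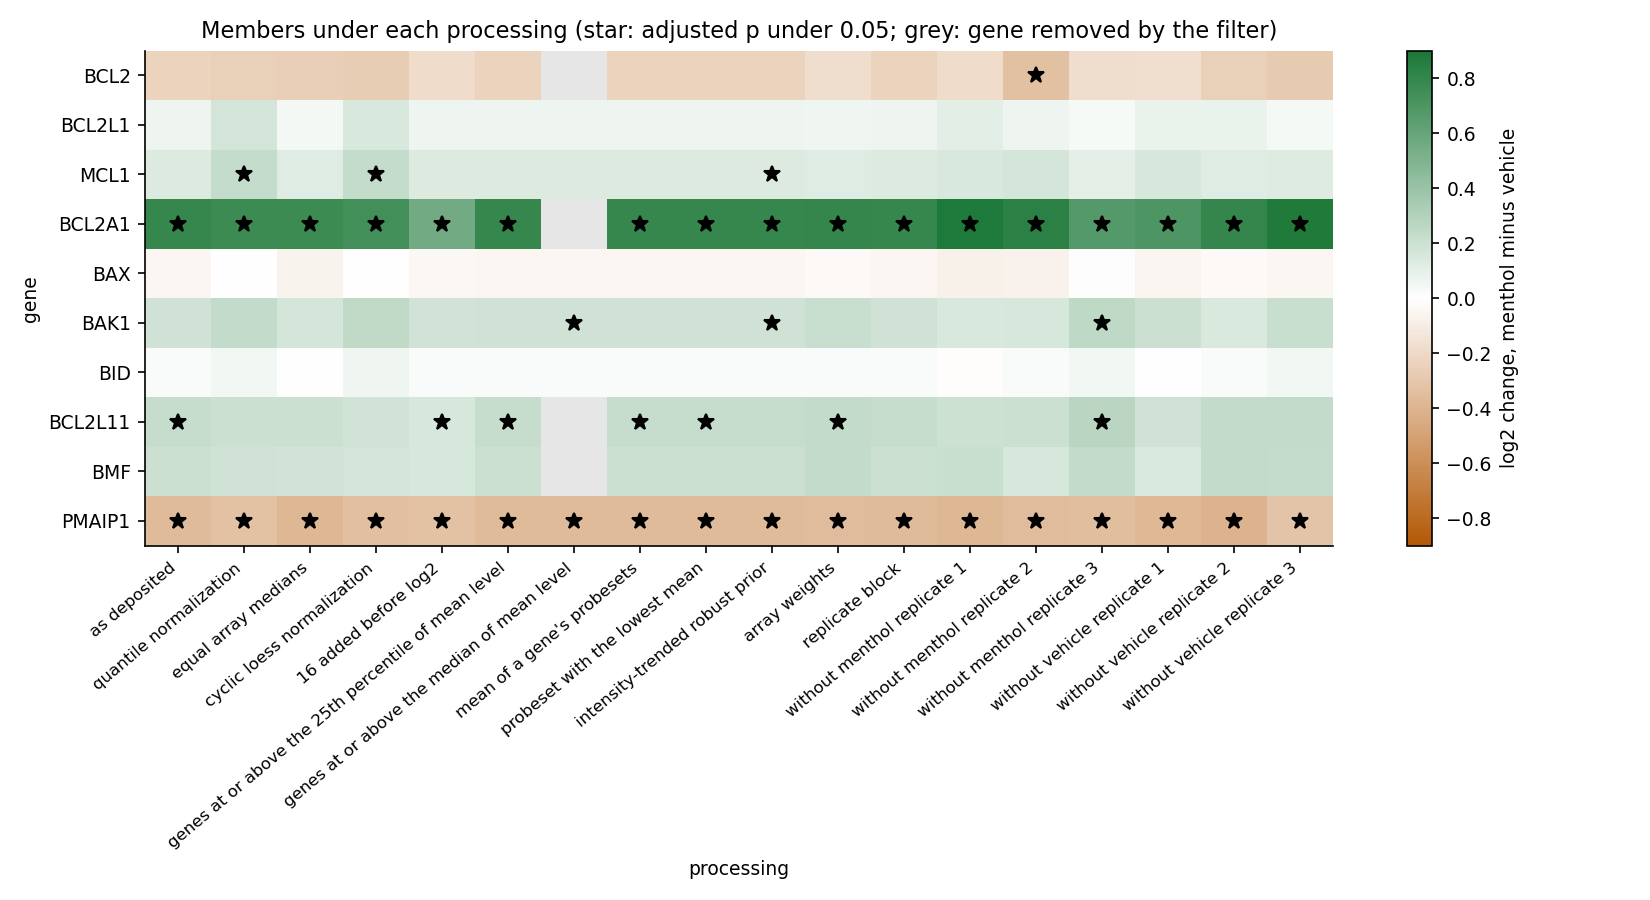
Log2 change, menthol minus vehicle (colour, green higher and orange lower), of each member (rows) as deposited and under each alternative processing (columns); stars mark an adjusted p under 0.05 and grey cells genes removed by a filter. BCL2A1 and PMAIP1 carry a star in every column in which they were tested, and BCL2L11 loses it in many.

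The promoters of the called members are shown because their genes moved and because regulators that bind such motifs were measured on the same arrays. Each sequence holds the 250 bases before the RefSeq gene start in GRCh38.p14, 5′ to 3′ on the gene's strand, and capitals mark matches to the motifs named below other than GC boxes. BCL2A1 lies at chr15:79971197-79971446 on the minus strand, PMAIP1 at chr18:59899746-59899995 on the plus strand and BCL2L11 at chr2:111120664-111120913 on the plus strand.
BCL2A1: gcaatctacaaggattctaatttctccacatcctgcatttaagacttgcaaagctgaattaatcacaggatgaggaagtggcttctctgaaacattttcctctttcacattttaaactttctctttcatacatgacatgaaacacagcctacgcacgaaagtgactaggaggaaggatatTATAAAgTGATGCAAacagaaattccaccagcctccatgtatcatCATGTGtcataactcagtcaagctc
PMAIP1: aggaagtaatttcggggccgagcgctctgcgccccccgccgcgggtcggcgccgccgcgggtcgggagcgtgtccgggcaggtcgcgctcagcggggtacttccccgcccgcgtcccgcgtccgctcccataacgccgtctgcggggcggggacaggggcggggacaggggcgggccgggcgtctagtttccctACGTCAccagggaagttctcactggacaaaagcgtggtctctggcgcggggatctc
BCL2L11: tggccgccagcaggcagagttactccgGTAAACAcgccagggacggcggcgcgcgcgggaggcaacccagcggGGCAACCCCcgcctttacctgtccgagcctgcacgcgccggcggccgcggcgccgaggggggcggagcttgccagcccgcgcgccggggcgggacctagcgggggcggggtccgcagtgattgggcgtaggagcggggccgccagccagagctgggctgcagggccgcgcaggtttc

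The BCL2A1 window was poor in GC (38.8%) and held 2 CpG dinucleotides, whereas PMAIP1 had 72.8% GC with 36 CpG and BCL2L11 76.8% GC with 34 CpG. The median over 27305 promoter windows was 58.0% GC and 11 CpG. Motifs were searched on both strands in windows of equal length, for 9 members, all but MCL1. The BCL2A1 window held TATAAA (bases 70 to 65 before the start), a C/EBP-ATF motif TGATGNAA (bases 63 to 56) and CATGTG, the core of the M-box that MITF binds (bases 25 to 20). These motifs occur in 11.1%, 3.19% and 9.54% of all windows. The PMAIP1 window held the cAMP response element core TGACGT (bases 56 to 51, minus strand; 7.42% of all windows) and 4 GC boxes GGGCGG, a motif in 42.3% of all windows. The BCL2L11 window held the FOXO motif TGTTTAC (2.98%), a kappaB-like motif GGNNTTNCC (14.8%), both on the minus strand, and 3 GC boxes. No match in these windows overlapped another. The AP-1 motif TGANTCA (6.60%) was in none of the 9 member windows, the E-box CACGTG (6.49%) was in that of BAX, at 4 places, and the E2F-like motif TTTNNCGC (5.93%) in that of BCL2L1. TATAAA was also in the window of BCL2L1 (bases 208 to 203 and 125 to 120), which was not called. GC boxes were in 6 of the 9 member windows, among them those of BAX, BAK1, BID and BMF, which were not called. A match describes letters and shows no binding.

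The change of a gene on these arrays varied with its brightness. Of 4 groups of 4601 genes ordered by mean level, the median log2 change was 0.10 in the dimmest, 0.06 and -0.01 in the next ones and -0.05 in the brightest. BCL2A1 and BCL2L11 lay in the second of these groups, where 13.4% of genes were called higher and 9% lower. PMAIP1 lay in the third, where 17.5% were called higher and 20.2% lower. Under quantile and cyclic loess normalization BCL2A1 changed by 0.77 and 0.74 and PMAIP1 by -0.33 and -0.34. The bright MCL1 and BCL2L1 moved further up under these normalizations, to 0.23 and 0.23 for MCL1 and 0.17 and 0.15 for BCL2L1. MCL1 then passed and BCL2L1 did not (adjusted p = 0.0862 and 0.133).

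**Figure D3:**
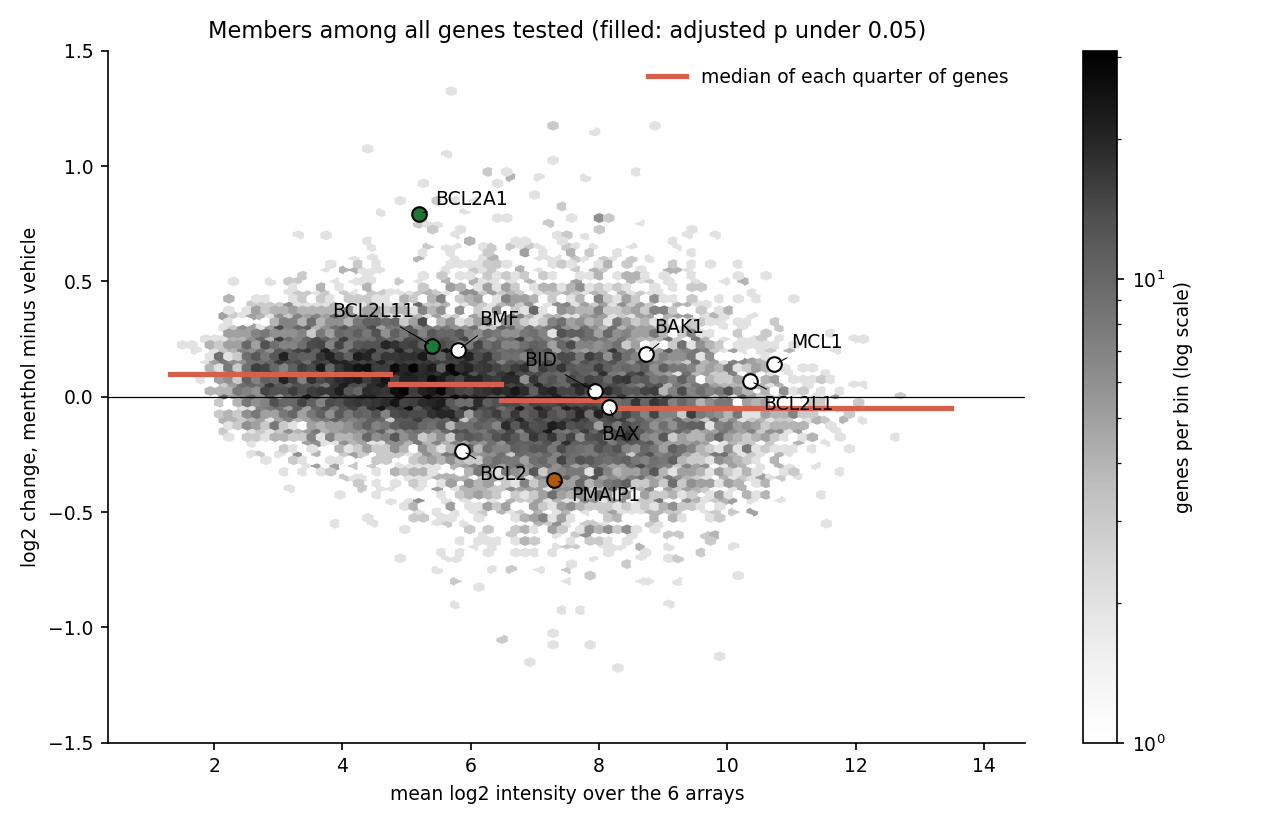
Log2 change, menthol minus vehicle (y axis), against mean log2 intensity over the 6 arrays (x axis) for all genes tested (grey bins) and the 10 members (circles, filled where called); red lines are the median change in each of 4 groups of genes by level, and the 46 genes beyond 1.5 on the y axis are not drawn. BCL2A1 stands well above the red line at its level, and PMAIP1 below its own.

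The genes whose pattern over the 6 arrays was closest to that of BCL2A1 were TENT5C, a non-canonical poly(A) polymerase, VPS50, an endosomal recycling subunit, and SEMA3C, a secreted semaphorin. Their root mean square differences from BCL2A1, each gene being centred on its mean, were 0.07, 0.08 and 0.09 on the log2 scale, with Pearson's r of 0.987, 0.985 and 0.987. Their changes were 0.77, 0.75 and 0.72. For PMAIP1 the closest were the tetraspanin gene CD151, NIBAN2 and GRB10, an adaptor of the insulin receptor, with root mean square differences of 0.02, 0.02 and 0.03 and changes of -0.34, -0.35 and -0.35. These are descriptions over 6 arrays that share the contrast between the groups.

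Other genes of the BCL2 family gave the largest decreases of the family. Of 12 measured genes 4 fell and 0 rose in limma, with a median change of 0.01, where 14.5% of all genes fell and 14.6% rose. At an unadjusted p under 0.05 the counts were also 4 lower and 0 higher, against 41.0% of all genes in either direction. BNIP3, a hypoxia-induced mitochondrial protein with a BH3-like region that acts in mitophagy, had 10.01, 10.03 and 10.08 with menthol, against 10.79, 10.76 and 10.85 with vehicle. It was 1.69-fold lower (log2 change -0.76 ± 0.06 (SE), adjusted p = 0.000162), with a wide gap between the groups. BCL2L12, an atypical family member, fell by 0.64 ± 0.07 (adjusted p = 0.000761). BOK, an effector-like relative of BAX and BAK1, fell by 0.24 ± 0.07 (adjusted p = 0.0413), and the dim BCL2L15 by 0.42 ± 0.13 (adjusted p = 0.0468), which was -0.17 with 16 added before log2. Without menthol replicate 1 or 2 or vehicle replicate 3, 2 of these genes were called lower in place of 4, BOK and BCL2L15 being lost. The BOK call also ended without menthol replicate 3 or vehicle replicate 2, under quantile and cyclic loess normalization and with array weights or the replicate block, and that of BCL2L15 without vehicle replicate 1, with 16 added before log2 and with the replicate block. Of the remaining BH3-only genes none was called: HRK was at 0.19 ± 0.09, BAD at 0.17 ± 0.09, BBC3, which encodes PUMA, at 0.16 ± 0.09 and BIK at 0.02 ± 0.10. BNIP3L, the mitophagy receptor closest to BNIP3, was at 0.14 ± 0.07 (adjusted p = 0.151), and it passed as higher under quantile normalization (0.24), cyclic loess normalization (0.22) and the trended prior. BCL2L10 was at 0.04 ± 0.07, BCL2L13 at -0.10 ± 0.08 and BCL2L14 at 0.01 ± 0.17, and none of them was called.

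**Figure D4:**
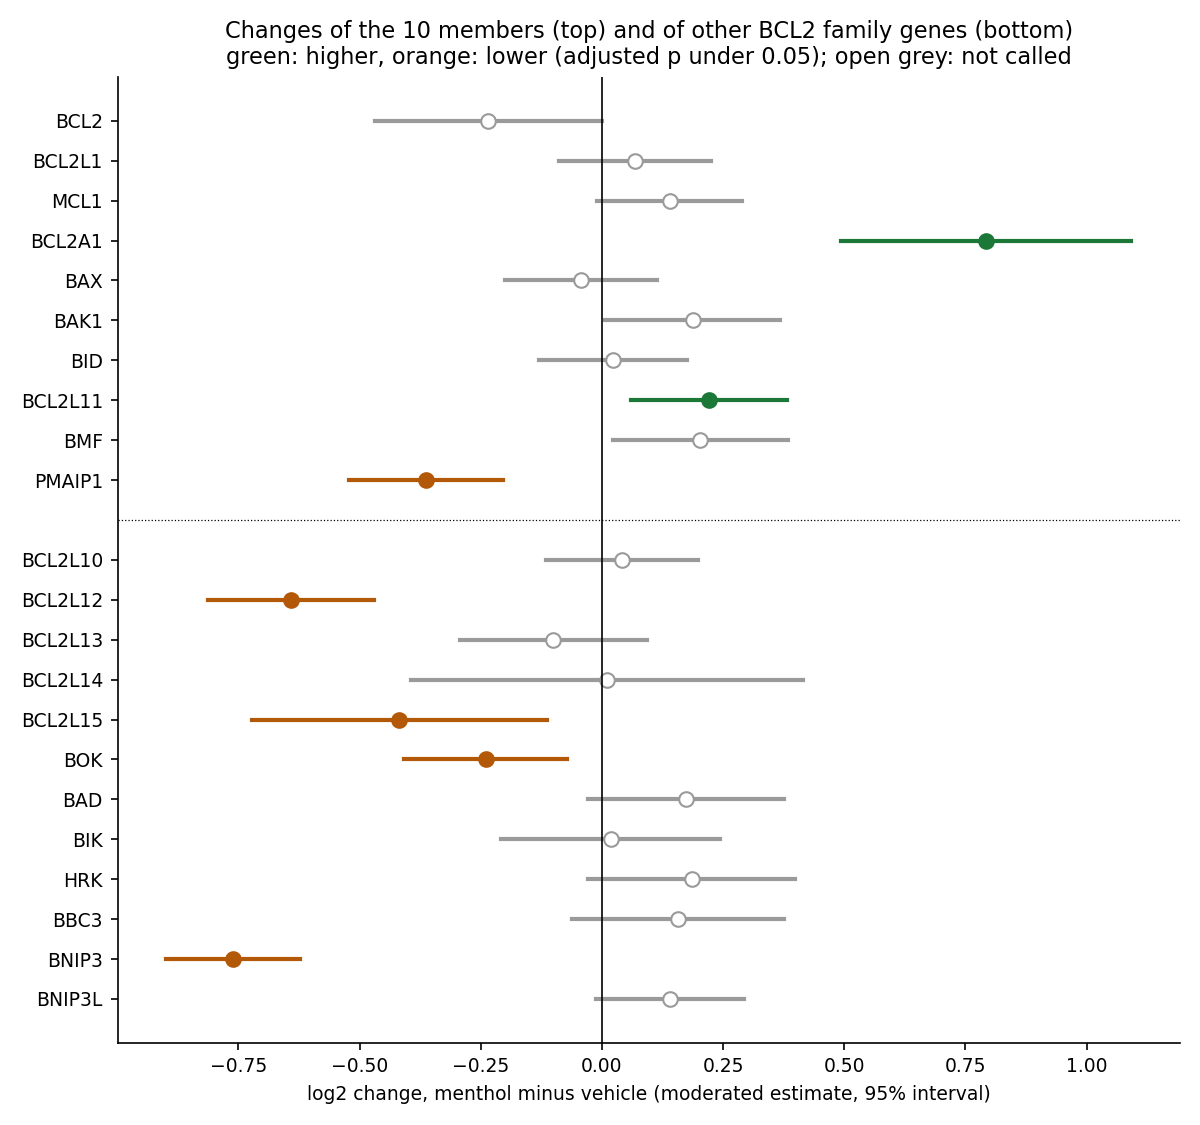
Log2 change, menthol minus vehicle, with its 95% interval (x axis) for the 10 members (above the dotted line) and the other measured BCL2 family genes (below it); green is higher, orange lower and open grey not called. BNIP3 and BCL2L12 lie far to the left with narrow intervals, and the interval of BCL2A1, from 0.49 to 1.09, lies far to the right.

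Among genes that act at the outer mitochondrial membrane or downstream of the pore, 2 of 14 measured rose and 3 fell, with a median change of -0.08. Of all genes tested 14.6% rose and 14.5% fell. In this list the count of genes that fell was 5 with 16 added before log2 or with dim genes left out, and 6 with the trended prior. That count was 2 under quantile or cyclic loess normalization, with the dimmer probesets, and without menthol replicate 2 or any vehicle array. At a threshold of 0.01 it was 1. CYCS, the gene of cytochrome c, fell by 0.38 ± 0.06 (adjusted p = 0.00313). CASP9, the caspase activated on the apoptosome, rose by 0.38 ± 0.08 (adjusted p = 0.0104), and CASP6, an executioner caspase, by 0.38 ± 0.07 (adjusted p = 0.00467). APAF1, the scaffold of the apoptosome, picked after its values were seen, was at -0.20 ± 0.06 and just missed the threshold (adjusted p = 0.0523), which it passed under 5 alternatives. DFFA, the inhibitor of the apoptotic nuclease, fell by 0.26 ± 0.06 and lost its call without vehicle replicate 1 (adjusted p = 0.0555). VDAC2, a channel protein that binds BAK1, fell by 0.23 ± 0.06, a gene picked after its values were seen. Its call ended without menthol replicate 2 or vehicle replicate 2 or 3 (adjusted p between 0.0544 and 0.0696), under quantile (-0.15) and cyclic loess (-0.12) normalization and with the dimmer probeset.

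In the death receptor arm, which reaches BID through caspase-8, 5 of 11 measured genes rose and 3 fell, with a median of 0.21, where 14.6% of all genes rose and 14.5% fell. At an adjusted p under 0.01, 2 of these genes rose. CASP10, a caspase close to caspase-8, was 1.81-fold lower (log2 change -0.86 ± 0.11 (SE), adjusted p = 0.00115). Its probeset was dim, at the 21.9th percentile, and with 16 added before log2 the change was -0.50. The receptor genes TNFRSF1A and TNFRSF10B fell by 0.48 ± 0.07 and 0.41 ± 0.06. CFLAR, which encodes the caspase-8 regulator c-FLIP, rose by 0.41 ± 0.08 (adjusted p = 0.00701). Of genes named after their values were seen, CASP8 rose by 0.33 ± 0.06, the adaptor genes FADD and TRADD by 0.27 ± 0.06 and 0.35 ± 0.09 and the receptor gene FAS by 0.36 ± 0.11. Without vehicle replicate 1, 3 of these genes were called higher in place of 5. The FAS call (adjusted p = 0.0439) ended without vehicle replicate 1 or 2 or any 1 of the menthol arrays (adjusted p between 0.0597 and 0.13), with equal array medians and under cyclic loess normalization. That of TRADD ended without menthol replicate 3 or vehicle replicate 1 or 3 (adjusted p between 0.0559 and 0.0583). In BID itself the groups overlapped, as given above.

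Of 6 measured inhibitor of apoptosis genes 1 rose and 1 fell, where 14.6% of all genes rose and 14.5% fell. BIRC2, which encodes the ubiquitin ligase cIAP1, rose by 0.40 ± 0.08 (adjusted p = 0.00627). BIRC5, the gene of survivin, which also acts in mitosis, fell by 0.23 ± 0.07 (adjusted p = 0.0414). The BIRC5 call ended with any vehicle array left out, or menthol replicate 2 or 3 (adjusted p between 0.0852 and 0.112), under quantile and cyclic loess normalization, with its dimmer probeset and with the replicate block.

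**Figure D5:**
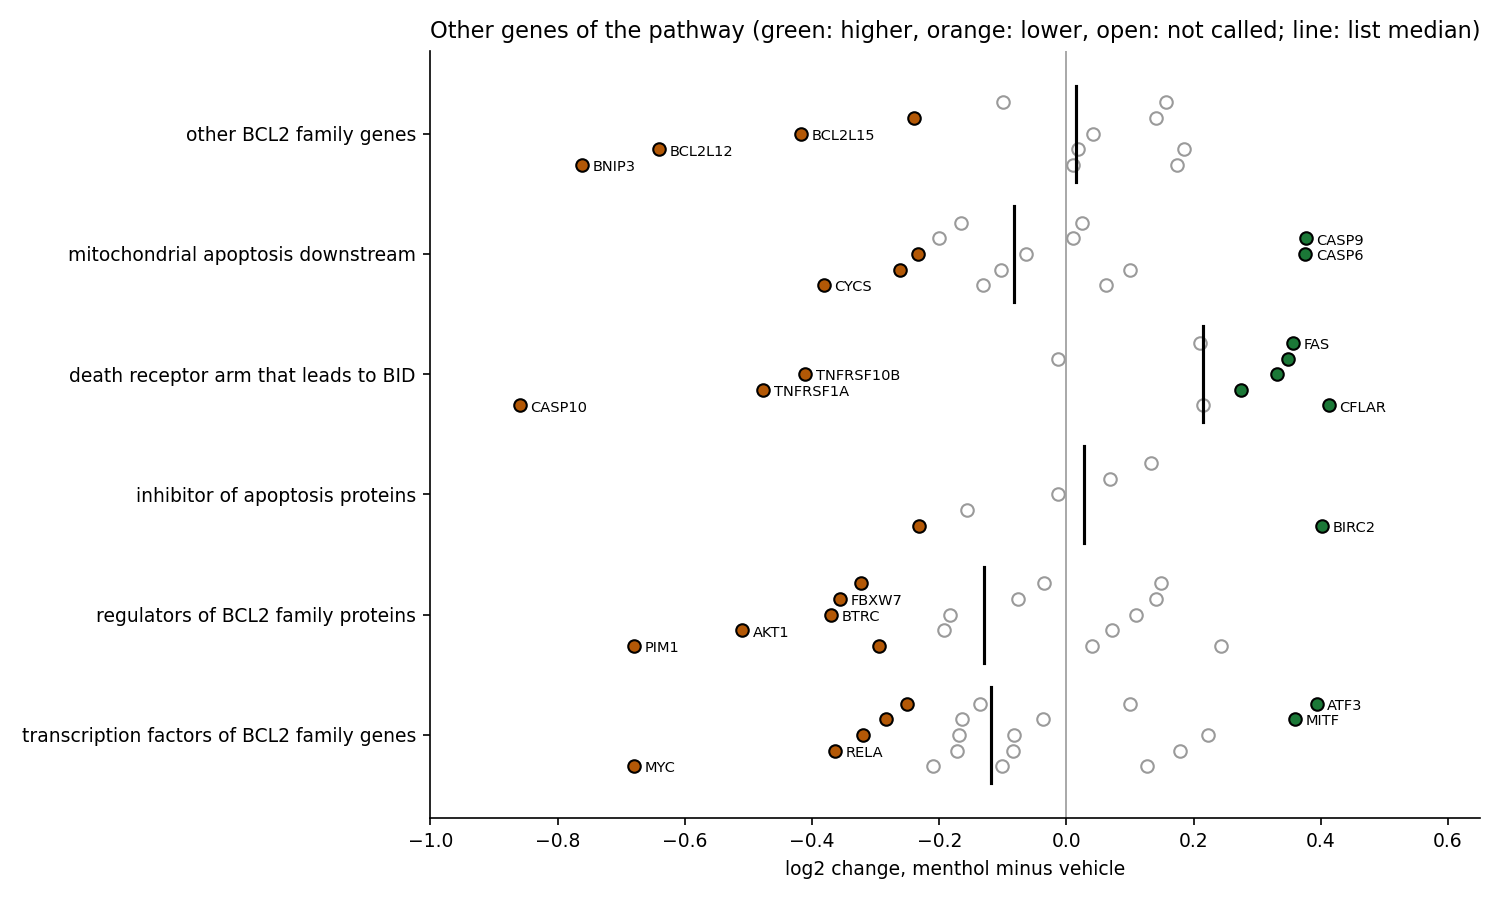
Log2 change, menthol minus vehicle (x axis), of each measured gene in the lists around the 10 members (rows); green is called higher, orange lower, open not called, and black lines are list medians. Genes called with a change over 0.35 are named; the regulators of BCL2 family proteins carry called genes on the lower side and none on the higher side in this processing.

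Among 16 genes whose products modify or carry BCL2 family proteins, 6 fell and 0 rose in limma, with a median of -0.13. Of all genes tested 14.5% fell and 14.6% rose. In the brightest of the 4 groups by level 26.9% fell and 17.2% rose. At an unadjusted p under 0.05, 8 of the 16 were lower and 2 higher, against 41.0% of all genes in either direction. Of these regulators 2 rose under quantile normalization, with genes below the median level left out or with the trended prior, and 3 under cyclic loess normalization. The count that rose was 1 with 16 added before log2, with genes below the 25th percentile left out, with array weights or without menthol replicate 1. The kinase gene PIM1 fell by 0.68 ± 0.09 and AKT1 by 0.51 ± 0.06, and both kinases phosphorylate the BH3-only protein BAD. BTRC and FBXW7, substrate receptors of ubiquitin ligases that act on MCL1, fell by 0.37 ± 0.08 and 0.36 ± 0.09. BTRC did not pass without vehicle replicate 1 (adjusted p = 0.0528), nor FBXW7 without menthol replicate 2 or 3 or vehicle replicate 2 or 3 (adjusted p between 0.0581 and 0.0732).

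Of 20 measured transcription factor genes tied to this family 2 rose and 5 fell, with a median of -0.12. Of all genes tested 14.6% rose and 14.5% fell. In this list 8 fell with 16 added before log2, with genes below the median level left out or with the trended prior. The count was 4 under quantile normalization, with other probesets, at a threshold of 0.01 or without vehicle replicate 3. MYC fell by 0.68 ± 0.06 (adjusted p = 0.000229). RELA, an NF-kappaB subunit known to activate BCL2A1, fell by 0.36 ± 0.06 (limma adjusted p = 0.00305). NFKB1 and NFKB2, named after their values were seen, fell by 0.32 ± 0.06 and 0.28 ± 0.06. The other measured subunits, also named after their values were seen, were not called: REL was at -0.10 ± 0.08 (adjusted p = 0.36) and RELB at 0.13 ± 0.07 (adjusted p = 0.239). MITF, which activates BCL2A1 in melanocytes, rose by 0.36 ± 0.07 (adjusted p = 0.00597). ATF3 rose by 0.39 ± 0.08 (adjusted p = 0.0086). ATF4, known to activate PMAIP1 under stress and also named after its values were seen, fell by 0.25 ± 0.06, a call that ended without vehicle replicate 3 (adjusted p = 0.0528), under quantile normalization (-0.16) and with its other probesets. Other factors tied to the motifs searched, also named after their values were seen, were not called in this processing. FOXO1 was at -0.04 ± 0.08, FOXO3 at 0.18 ± 0.11 and FOXO4 at -0.08 ± 0.08. CEBPB was at -0.21 ± 0.07 (limma adjusted p = 0.0694), SP1 at -0.17 ± 0.07 (limma adjusted p = 0.0887) and E2F1 at -0.08 ± 0.07. Whether any of these genes had a part in the changes of BCL2A1, PMAIP1 or BCL2L11 was not tested.

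The epithelial genes KRT8, KRT18, KRT19, EPCAM and CDH1 lay between the 87.6th and the 99.0th percentile of mean level, and all 5 rose, with summed intensities of 10520 to 10856 units with menthol and 6213 to 6570 units with vehicle. The prostate luminal genes KLK3 and KLK2 lay at the 32.2th and 33.6th percentile and were not called. Since BCL2A1 is a gene of blood cells, leukocyte markers were examined: 0 of 9 measured markers were called in limma (2 were higher at an unadjusted p under 0.05), and their summed intensity was 261 to 291 units with menthol and 249 to 278 units with vehicle. Their mean levels ran from the 2.96th percentile (PTPRC, the pan-leukocyte antigen) to the 52.5th (TYROBP, an adaptor of myeloid and NK cells). BCL2A1 lay between them, at the 31.2th. Of the summed intensity, TYROBP alone gave 84.5 to 119 units with menthol and 77.0 to 109 units with vehicle. The lowest value of any probeset was 1.57 units, so these levels cannot tell absence from presence. Of 7 endothelial markers 2 rose (summed 227 to 245 units with menthol and 187 to 202 units with vehicle). Of 8 fibroblast markers 3 rose and 1 fell (425 to 462 units with menthol and 464 to 482 units with vehicle). Over all genes 14.6% rose and 14.5% fell. The part of these cell markers in the changes of the members was not tested. The median of all probesets was 47.4 to 49.1 units on every array, and the number of arrays limits the precision.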

How the data were processed

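Total RNA of each of the 6 PC-3 samples (300 ng) was labelled and hybridised to Affymetrix whole-transcript arrays. The authors deposited intensity values for 32321 probesets, made with RMA per the submitters' processing notes; they ranged from 1.57 to 14835 and so were linear, and log2 was taken first. The deposited values were already normalized between arrays. Probesets with a single gene symbol in the platform annotation were kept (19158), and for each gene the one with the highest mean, which left 18404 genes. Menthol and vehicle were set against each other in limma 3.58.1 (R version 4.3.3), with lmFit, eBayes and no term but the group. Its two-sided p-values were adjusted after Benjamini-Hochberg over all 18404 genes; a gene was called at an adjusted p under 0.05. With 3 arrays a group, the smallest p that an exact permutation test allows is 0.10, so none is given. Intervals are 95% intervals from the moderated fit. Promoters and figures used RefSeq windows, Python 3.11.15 and matplotlib 3.10.9. The members, lists and named genes were chosen with earlier results of these data known. By rule, the text names the members, the other family genes, up to 4 called genes of each list with the largest change, and the 3 genes closest in pattern to BCL2A1 and PMAIP1; pathway genes named beyond it are said to be so, and cell markers are named as list members or as the ends of a range. Alternatives were other normalizations, a pseudocount of 16, filters on dim genes, other probesets, a robust prior with an intensity trend (statmod 1.5.0), weights for arrays, the replicate block, a threshold of 0.01 and each array left out.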

Additional observations from a re-analysis of the deposited data

How the results depend on the processing

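Of 176 values of the members under 18 alternatives, 154 kept their direction and their side of the threshold, 11 lost the call (all BCL2L11), 7 gained one (BCL2, MCL1 and BAK1) and 4 changed sign. These values were not all separate checks. Each member has 1 probeset, so the alternatives with other probesets repeat its main value, and the threshold of 0.01 uses the main fit. The change of BAX was 0.000958 under cyclic loess normalization and -0.0707 to 0.0106 with each array left out, and that of BID was -0.0106 to 0.0562. The count of members called higher was 1 in place of 2 with equal array medians, with the replicate block and at a threshold of 0.01 (BCL2A1), and 1 with genes below the median level left out (BAK1), where BCL2, BCL2A1, BCL2L11 and BMF were removed and so have no value. With each array left out it was 1 to 3, and the count called lower 1 to 2. Over all genes 2841 were called at a threshold of 0.01, and 3839 to 4828 with an array left out. For the 35 other genes put through the alternatives, 554 of 624 values kept their direction and call, 62 lost the call, 8 gained it and 0 changed sign.

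The replicate numbers are shared by the groups. Deviations of same-numbered arrays from their group means correlated between -0.01 and 0.09, and those of differently numbered arrays between -0.07 and 0.07. Such values cannot tell whether same-numbered samples were prepared together, which the labels do not state. The main fit treated the arrays as unpaired. With the replicate block 4868 genes were called.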
